A study of Mus musculus with 16 samples.

Results

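The comparison described here is that of quadriceps muscle from mice that carry 2 copies of the uORF-TAA allele of Ppargc1a with quadriceps from wild-type littermates. It takes in 8 of the 16 libraries of the study, 4 per genotype, and all 17539 genes that the authors' deposited table lists for this muscle. The mice were male C57BL/6 animals, 10 weeks of age, kept at room temperature, and nothing beyond the allele distinguishes the genotypes in the labels. The other 8 libraries are of brown fat. Messenger RNA was sequenced from stranded libraries made from total RNA of the frozen muscle, which is bulk tissue. The allele is in the germline, so every cell type of the muscle carries it. The series' design text speaks of 4 mice per genotype, so the spread behind each error is taken to be that among mice.

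Ppargc1a encodes PGC-1alpha, a coactivator that binds nuclear receptors and other DNA-bound factors and raises transcription of genes for mitochondria, fatty acid oxidation and, in muscle, the slow and oxidative fibre programme. In muscle it is known for its rise with exercise, cold and fasting. An upstream open reading frame (uORF) is a short coding stretch ahead of the main one in an mRNA, which ribosomes meet first and which often lowers translation of the protein that follows. TAA is a stop codon. The question that the comparison addresses is whether the muscle's mRNAs differ between the genotypes. It does not measure the protein.

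Fold changes are uORF-TAA over wild type, on the assumption that the name of the table puts the numerator first. If the order is the reverse, every direction below turns over together. The table gives 1 mean over the 8 libraries per gene and no value per mouse, so no statement can be made about how single animals or the groups overlap. The factors that scale the libraries to each other were recovered from genes seen as a single read in a single library. Multiplied by the sum of the mean normalized counts, 21.0 M (M, 1e6), they give an estimated depth per library. It ran from 11.4 M to 31.8 M counts with a median of 22.0 M, and was not assigned to genotypes. The tissue carried the markers of its label. The fast myosin heavy chain gene Myh4 held 10.2% of all counts, the 10 genes fixed as muscle fibre markers held 21.5%, and 10 genes together held 28.1%. In order these 10 were Myh4, the calcium pump gene Atp2a1, Ttn, Tnnt3, Neb, Acta1, Tpm1, Ckm, the ribosomal precursor RNA Rn45s and Pdk4.

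In the authors' deposited table no gene had an adjusted p under 0.05, so 0% of the 17521 genes with a p-value were called. At an unadjusted p under 0.05 there were 165 genes higher in uORF-TAA, which is 0.942% of those tested, and 185 lower, which is 1.06%. Together they number 350, or 2% of the genes tested, where p-values spread evenly between 0 and 1 would put 5% under that threshold. Above 0 stood 9056 genes (51.7%) and below 0 stood 8465. The median log2 fold change was 0.0021 over the 9824 genes with a mean normalized count of at least 50, and the middle 50% of them lay between -0.06 and 0.06. Across all tested genes the deposited values ran from -0.46 to 0.61. Of those 9824 genes, 177 lay past 1.2-fold in either direction and 1, Myod1, past 1.5-fold. The genes named from here on are therefore given with their values and none is stated to have changed.

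**Figure D1:**
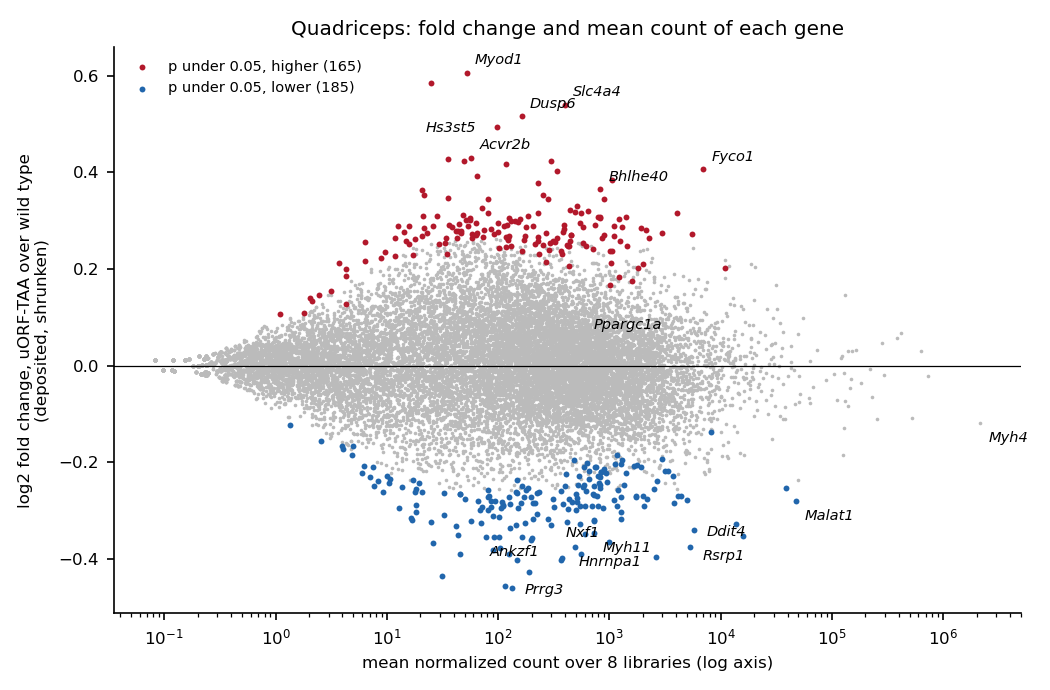
Deposited log2 fold change of uORF-TAA over wild type (vertical axis) against the mean normalized count over the 8 quadriceps libraries (horizontal log axis), 1 point per gene with a p-value. The 165 red and 185 blue points have an unadjusted p under 0.05, none has an adjusted p under 0.05, and Myod1 at 0.61 and Prrg3 at -0.46 mark the ends of the range.

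The deposited fold changes were read as drawn towards 0 by a prior, and this bears on what can be called flat. The deposited standard error had a sharp ceiling at 0.135 log2 units, with 1965 genes within 1% of it, and fell to a median of 0.0223 in genes with a mean under 1. That is the shape a normal prior with an SD of 0.269 log2 units gives. Since no deposited 95% interval can then reach further than 0.264 from its estimate, a deposited interval that lies near 0 is weak evidence of precision. Deposited intervals wholly within 0.32 log2 units of 0 were held by 6270 genes, or 63.8% of those with a mean of 50 or more. With the prior approximately undone, the median standard error rose from 0.12 to 0.17, fold changes grew by a median factor of 1.41, and 1927 genes (19.6%) had intervals within that bound. Within 1.5-fold lay 7925 genes (80.7%), and within 2-fold 9734 (99.1%). A deposited error fits a small or a large unshrunken error. The small one was used unless it fell under counting noise or implied a variability far under that of genes of like mean. A gene whose error is in fact the large one can then be counted as bounded, which makes the counts too high. A gene wrongly given the large error is left out of them. Where the small one was kept unless under counting noise, the 1927 became 1938. On that scale, differences of over 2-fold between the genotypes lay outside the intervals of nearly all well-measured genes, whereas for most of them the interval reached past 0.32 log2 units.

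For 30 genes with a mean of at least 50 the deposited error was read as the large root, since the small one implied less variability than genes of like mean show, and 6 of the 30 were slow fibre genes. These 6 were Myh7, the slow myosin heavy chain, the slow troponins Tnni1, Tnnc1 and Tnnt1, and the slow myosin light chains Myl2 and Myl3. Their deposited errors lay between 0.0636 and 0.0748. The lowest error of any gene outside the 30 was 0.0846 at means of 100 to 500 and 0.0734 at means of 500 to 2000. Since the rule took out genes of small error, the rest lie higher in part by construction, so this comparison is no test. Myl3, at a mean of 516 and an error of 0.0737, lies just above the lowest of its range. Read as the large root, the error of Myh7 became 1.07 log2 units and its 95% interval ran from -1.69 to 2.52. Read as the small root, it was 0.07, with an interval from -0.11 to 0.16. The heat shock genes Hspa1a and Hspa1b, the neutrophil gene S100a9, the erythroid gene Alas2, and Spp1 and Ibsp, which are expressed in bone, were among the other 24. These genes were singled out after their values were seen, and Hspa1a and Hspa1b are near-identical copies whose reads the counting could divide. Values per mouse, which would show whether these genes varied among animals, were not analysed here.

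**Figure D2:**
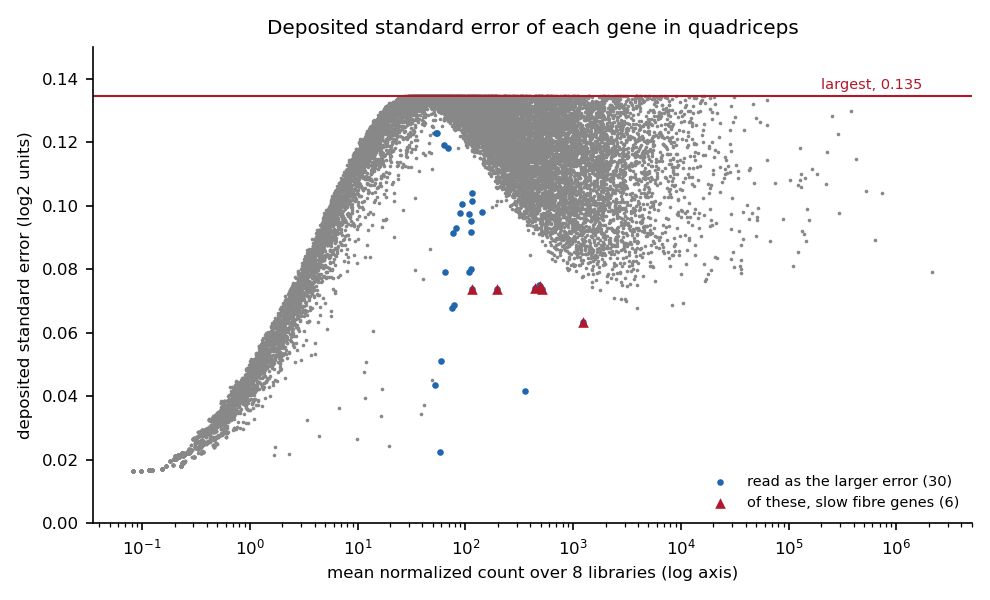
Deposited standard error of the log2 fold change (vertical axis) against the mean normalized count (horizontal log axis) for each tested quadriceps gene, with the largest error, 0.135, as a line. Of the 30 genes read as the larger error, the 6 slow fibre genes are red triangles between 0.0636 and 0.0748 and the others are blue, some of them within the range of other genes.

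The mutated gene itself showed no difference at the mRNA level that these libraries could resolve. Ppargc1a had a mean normalized count of 604 and, in the authors' deposited table, stood at 0.06 ± 0.13 (SE), a fold of 1.04. Its deposited 95% interval ran from -0.19 to 0.31, and with the prior undone from -0.29 to 0.46. Both intervals contain no difference, and the wider one reaches past 0.32 log2 units in the higher direction. Ppargc1b, which encodes the related coactivator PGC-1beta, had a log2 difference of 0.28 ± 0.13 at a mean of 75.1, and the authors' deposited table gives it p = 0.0370 before adjustment. The third member of the family, Pprc1, stood at -0.0011 ± 0.12 in the same table. As background on the gene, the 250 bases before a RefSeq start in GRCm38.p6, chr5:51567726-51567975 on the minus strand, are printed. They precede the mRNA that begins at that start, so they are not shown as the site of the uORF change. In capitals is TGACG, here on the opposite strand. It is the core of the element that the cAMP-responsive factor CREB binds.
Ppargc1a: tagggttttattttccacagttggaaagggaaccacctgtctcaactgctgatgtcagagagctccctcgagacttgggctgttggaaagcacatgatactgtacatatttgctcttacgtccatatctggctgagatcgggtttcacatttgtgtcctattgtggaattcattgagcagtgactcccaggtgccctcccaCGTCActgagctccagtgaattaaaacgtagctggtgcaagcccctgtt

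The partners through which PGC-1alpha acts had deposited medians close to 0. Of 20 coregulators, 9 stood above 0 and 11 below, with a median of -0.0024. The largest values in the authors' deposited table were 0.21 for Fbxw7, a ubiquitin ligase subunit, and -0.20 for Rbm14, and the kinase subunit gene Prkaa2 of AMPK stood at 0.12. Of 20 nuclear receptors and other DNA-bound partners, 11 stood above 0 and 9 below, with a median of 0.03. Among them the authors' deposited table gives Mef2c 0.22, the mitochondrial DNA factor Tfam 0.16 and the estrogen-related receptor gene Esrrg 0.16. No member of either list had an unadjusted p under 0.05. With the prior undone, 15 of the 20 DNA-bound partners lay within 1.5-fold, beside 80.7% of all genes with a mean of at least 50. Of the 19 coregulators with such a mean, 16 did.

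Known targets of PGC-1alpha in muscle leaned above 0 by little. Over all tested genes 51.7% stood above 0 and 0.942% were higher at an unadjusted p under 0.05. Of 25 targets tested, 19 stood above 0 and 6 below, with a median of 0.04, and 1 had an unadjusted p under 0.05. That gene was Vegfa, the main angiogenic ligand, at 0.28 ± 0.12 with p = 0.0146 in the authors' deposited table. Pdk4, the kinase that turns off pyruvate dehydrogenase, stood at -0.07, and Ucp3, a mitochondrial carrier, at -0.05 there. The superoxide dismutase gene Sod2 stood at 0.02 and cytochrome c (Cycs) at 0.06. With the prior undone, the intervals of 23 of the 25 lay within 1.5-fold, beside 80.7% of all genes with a mean of at least 50.

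The respiratory chain lay close to 0. Of the 36 complex I genes tested, 21 stood above 0 and 15 below with a median of 0.02, and 35 lay within 1.5-fold with the prior undone. Complex II had all 4 of its genes above 0, from 0.0037 for Sdha to 0.13 for Sdhd. Complex III with cytochrome c had 8 above and 2 below, and complex IV 7 above and 7 below. All members of these 3 groups lay within 1.5-fold. ATP synthase had 11 genes above 0 and 5 below, with Atp5e at 0.17 in the authors' deposited table. The mitochondrial ribosome had 42 above and 34 below, with a median of 0.0072, and 74 of its 75 genes with a mean of at least 50 within 1.5-fold. No gene of these 6 groups had an unadjusted p under 0.05. The citrate cycle, with 7 genes on either side and all 14 within 1.5-fold, lay as close to 0.

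Genes of fatty acid oxidation and of glycogen mostly stood slightly above 0. Of 22 genes of fatty acid oxidation, 20 stood above 0 and 2 below, with a median of 0.07, a lowest value of -0.07 and a highest of 0.15. The highest was Decr1, which handles unsaturated fatty acids, and the electron transfer flavoprotein genes Etfa and Etfb stood at 0.11 and 0.12 in the authors' deposited table. Of 16 glycogen genes, 14 stood above 0, again with a median of 0.07. Stbd1, a glycogen-binding protein, was highest at 0.23, Ppp1r3a, the glycogen-targeting subunit of a phosphatase, stood at 0.21, and the phosphorylase gene Pygm was lowest at -0.04. In neither list did a member reach an unadjusted p of 0.05. Over all genes 51.7% stood above 0. No test of a list as a whole was made. Glucose uptake and glycolysis had 13 genes above 0 and 8 below, between -0.22 for the transporter gene Slc2a1 and 0.19 for the lactate transporter gene Slc16a3.

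**Figure D3:**
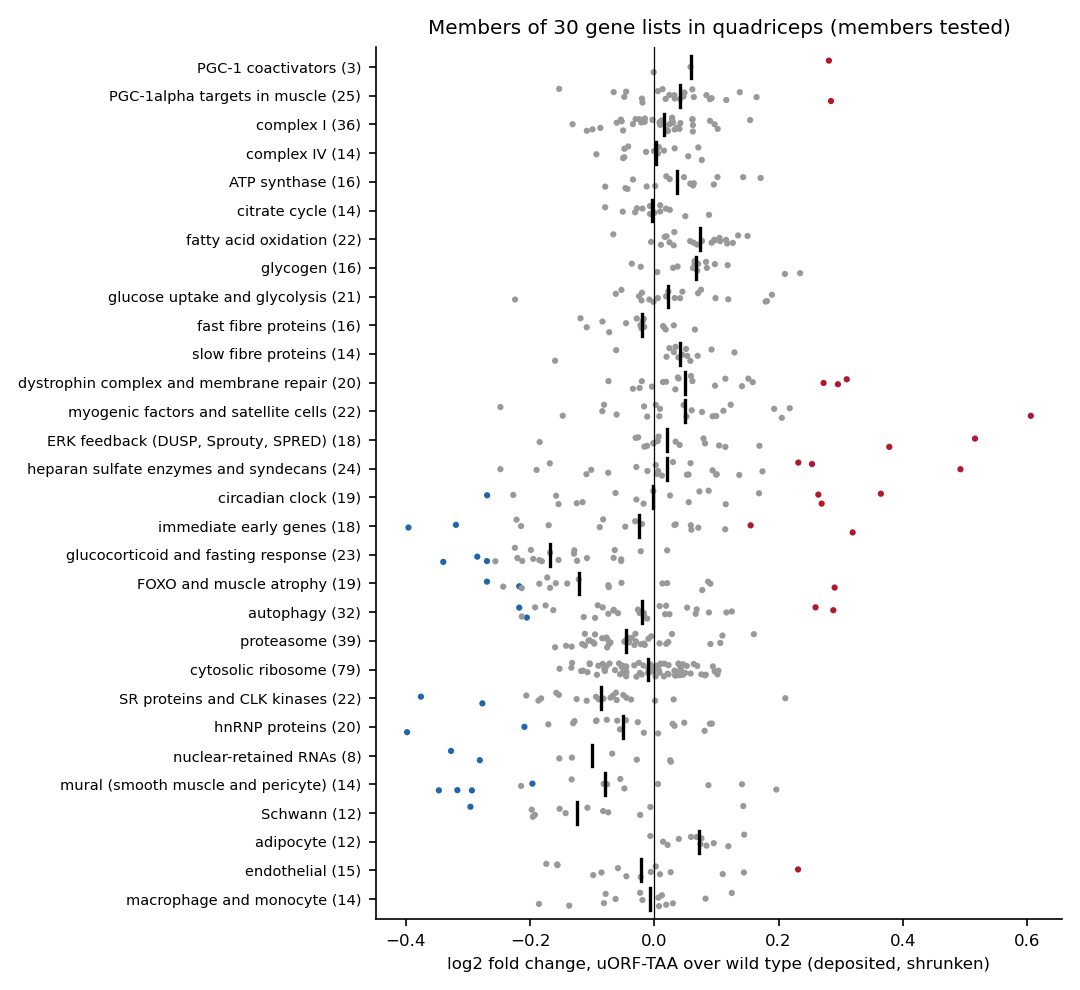
Deposited log2 fold changes (horizontal axis) of the tested members of 30 gene lists in quadriceps, 1 point per gene, with the number tested in brackets and a black bar at the list median. Red and blue points have an unadjusted p under 0.05. Glucocorticoid and fasting genes lie almost wholly below 0 and fatty acid oxidation genes almost wholly above, and complexes I and IV lie close about 0.

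The highest fold change in muscle was that of Myod1, the basic helix-loop-helix factor that commits cells to the muscle lineage. It stood at 0.61 ± 0.13, a fold of 1.52, and the authors' deposited table gives it an adjusted p of 0.0960 at a mean of 52.3. With the prior undone the fold was 2.22 or, by the other root, 2.43. The other myogenic and satellite cell genes lay less far out. Those of next smallest p were Sdc4 at -0.25, Six4 at 0.21 and Mef2c at 0.22. In the authors' deposited table Myf5 was at 0.01 and the satellite cell factor Pax7 at 0.09. Cdh15, a muscle cadherin, was at 0.12, and Myog and Myf6, added to those the naming rule picks after their values were seen, were at 0.01 and 0.06. Of 22 myogenic and satellite cell genes, 15 stood above 0 and 7 below, with a median of 0.05, and Myod1 alone had an unadjusted p under 0.05.

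Slc4a4 and Dusp6 followed Myod1. Slc4a4, a sodium bicarbonate cotransporter of the cell membrane, stood at 0.54 ± 0.13 with a mean of 397, and the authors' deposited table gives it an adjusted p of 0.133. Other genes of bicarbonate handling stood on both sides of 0. Slc4a8, another bicarbonate cotransporter, stood at -0.35 (unadjusted p = 0.00345 in the authors' deposited table), and the muscle carbonic anhydrase gene Car3 at 0.14. Car9, a carbonic anhydrase of the cell surface with a mean of 11.9, stood at 0.26 ± 0.11 (unadjusted p = 0.0203, also from the authors' deposited table). Of 16 bicarbonate and carbonic anhydrase genes 11 stood above 0 and 5 below. Dusp6, a phosphatase that ERK signalling induces and that switches ERK off, stood at 0.52 ± 0.13 with a mean of 163 and an adjusted p of 0.141. Dusp1, an immediate early phosphatase of the same family, stood at 0.38 (p = 0.00435 before adjustment in the authors' deposited table). The other feedback genes of the ERK pathway lay between -0.18 for Dusp4 and 0.17 for Dusp10, so that 11 of 18 stood above 0 with a median of 0.02.

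The next genes on the higher side came from several pathways. Hs3st5, which adds a sulfate group to heparan sulfate chains, stood at 0.49 ± 0.13 in the authors' deposited table. The heparan sulfate genes Hs2st1 and Gpc4 also had an unadjusted p under 0.05, at 0.25 and 0.23. Over all tested genes 0.942% were higher at that threshold and 51.7% stood above 0. Of the 24 members of the heparan sulfate list 16 stood above 0, and 17 had a mean of at least 50. Fyco1, an adaptor that links autophagosomes to microtubule motors, was the most abundant of the 12 higher genes of smallest p, with a mean of 6978 and a log2 difference of 0.41 ± 0.12 in the authors' deposited table. Acvr2b, the receptor to which myostatin binds, stood at 0.43 ± 0.13. Its ligand gene Mstn stood at -0.18. The clock repressor Bhlhe40 stood at 0.36 ± 0.13. The others of the 12 were Rnf150 (0.38), the cholinesterase gene Bche (0.42), Atcayos (0.42), Zfp449 (0.39) and Prkg1 (0.40), the cGMP-dependent kinase, by the authors' deposited table. Atcayos is an antisense transcript, and whether the counting used strand is not known from the labels, so its reads and those of the opposite strand cannot be told apart.

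On the lower side the gene of smallest p was Hnrnpa1, an RNA-binding protein of splicing, at -0.40 ± 0.09 with a mean of 377, and its adjusted p there, in the authors' deposited table, was 0.133. The gene has many processed copies in the genome, and how reads shared with them were counted is not given, so its level is uncertain. Ankzf1, a factor of ribosome quality control, stood at -0.40 ± 0.10 with the same adjusted p of 0.133. Prrg3, a membrane protein with a vitamin K-dependent domain, had the lowest value, -0.46 ± 0.12. Nxf1, the main receptor for export of mRNA from the nucleus, stood at -0.29 ± 0.08 and Rsrp1, an arginine- and serine-rich protein, at -0.38 ± 0.10. For all 3 the authors' deposited table has an adjusted p of 0.490. The remaining 7 were Myh11 (-0.35), Rin3 (-0.46), Lrrc8c (-0.40), Gpr133 (-0.43), Igfbp3 (-0.39), Cd200 (-0.36) and Kcna1 (-0.38).

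Genes of RNA processing lay mostly below 0. Of 22 SR proteins and CLK kinases, which set splice site choice, 19 stood below 0 and 3 above, with a median of -0.09. Besides Rsrp1, Clk1, a kinase of SR proteins, had an unadjusted p under 0.05, at -0.28 ± 0.13 (p = 0.0335 in the authors' deposited table). The spliceosome scaffolds Srrm1 and Srrm2 stood at -0.21 and -0.19. Of 20 hnRNP genes 13 stood below 0, with Hnrnpa1 and Hnrnpm (-0.21) under an unadjusted p of 0.05. Of 17 mRNA export genes 11 stood below 0, and Nxf1 alone was under that threshold. Malat1 and Neat1, abundant RNAs that remain in the nucleus, stood at -0.28 ± 0.11 and -0.33 ± 0.13 (unadjusted p = 0.00878 and 0.00908 in the authors' deposited table). Over all tested genes 1.06% were lower at that threshold. Genes of the lower side at means of 500 to 1000 numbered 41 at an unadjusted p under 0.05, against 16 higher, and the Wald statistic fell slightly with the mean count (Spearman's rho -0.14 across 9790 genes, which are not independent of each other). What part the mean count has in these values was not tested.

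Genes that glucocorticoids or fasting induce were the most one-sided of the lists with at least 12 tested members, by count. The lists were chosen with earlier results of these data known. Schwann cell markers, with 11 of 12 below 0, and adipocyte markers, with 11 of 12 above, came close. Of 23 tested, 22 stood below 0 and 1 above, with a median of -0.17, against 0.0024 over all tested genes. An unadjusted p under 0.05 was reached by 3 of them, all lower, beside 1.06% of all tested genes. No member was called after adjustment. Ddit4, which restrains mTORC1 under stress and glucocorticoids, stood at -0.34 ± 0.13 (p = 0.0115 in the authors' deposited table). Cdkn1a, the cell cycle inhibitor p21, stood at -0.28 ± 0.13 (p = 0.0344) and Foxo1, the transcription factor of the fasted state, at -0.27 ± 0.13 (p = 0.0455), both from the authors' deposited table.

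Other members of the list are given after their values were seen. The steroid-induced factors Zbtb16 and Klf15 both stood at -0.22, and the glucocorticoid receptor's chaperone Fkbp5 at -0.18 and the anti-inflammatory Tsc22d3 at -0.19 in the authors' deposited table. The clock gene Per1 stood at -0.15, Sgk1 at -0.13, and the receptor gene itself, Nr3c1, at -0.05. The 3 most abundant members did not lie furthest out. Pdk4 stood at -0.07, and of the muscle ubiquitin ligases Trim63 (MuRF1) stood at -0.19 and Fbxo32 (atrogin-1) at 0.02, the single member above 0.  With the prior undone, Ddit4 stood at -0.64 with an interval from -1.13 to -0.14, and 10 of the 23 intervals lay within 1.5-fold. The metallothionein genes Mt1 and Mt2, in this list and in that of antioxidants, stood at -0.13 and -0.11.

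**Figure D4:**
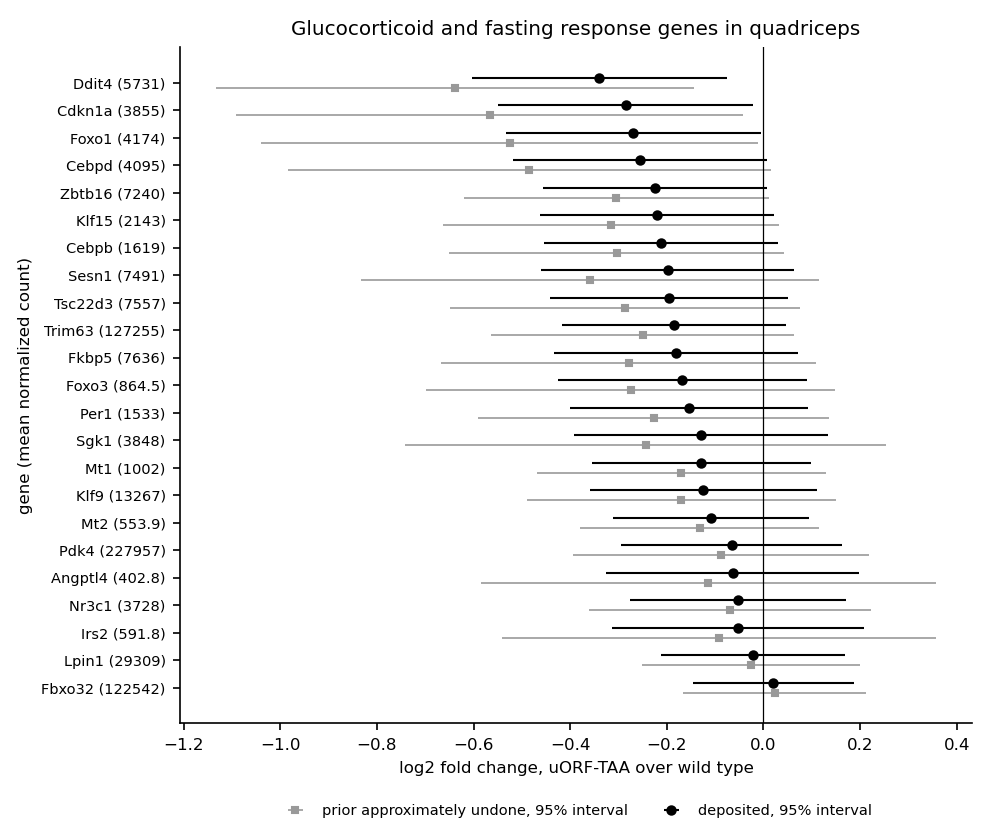
Log2 fold change of uORF-TAA over wild type (horizontal axis) for the 23 glucocorticoid and fasting response genes, with the mean normalized count in brackets. Black points are deposited values and grey squares those with the prior approximately undone, both with 95% intervals, and Fbxo32 is the single gene above 0.

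The bases before the start sites of the glucocorticoid and fasting genes were searched for 4 short motifs, a list chosen after its values were seen. The search used the 250 bases before each RefSeq start (GRCm38.p6, matched by symbol), on both strands. A GRE core, AGAACA, which the glucocorticoid receptor can bind, was held by 4 of the 18 members with a promoter entry, by 12.5% of genes whose mean was 50 or more and by 18.2% of all 27025 genes with an entry. A FOXO site, GTAAACA, was held by 2 of the 18, and by 2.56% and 3.54% of those 2 sets. An E-box, CACGTG, was held by 5, against 10.5% and 6.86%, and a CRE core, TGACG, by 9, against 32.4% and 19.8%. A gene with several start sites has more chances of a match, and Sgk1 has 6 such windows. A match is a description of the letters and not evidence of binding, and the list was not tested against either set. Trim63 carries both a GRE core and a FOXO site, side by side without overlap, and Klf9 a FOXO site and a CRE core. In 1 of the start sites of Sgk1 an E-box overlaps a GRE core, with another 2 GRE cores after it. These 3 genes were chosen for display after their matches were seen. Capitals mark the matches in the windows chr4:134314870-134315119, chr19:23140976-23141225 and chr10:21993640-21993889, all on the plus strand.
Trim63: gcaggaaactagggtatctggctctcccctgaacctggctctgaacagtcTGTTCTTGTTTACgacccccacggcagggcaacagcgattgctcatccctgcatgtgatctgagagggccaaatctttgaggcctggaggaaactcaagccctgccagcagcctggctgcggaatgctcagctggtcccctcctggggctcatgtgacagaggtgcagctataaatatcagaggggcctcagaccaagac
Klf9: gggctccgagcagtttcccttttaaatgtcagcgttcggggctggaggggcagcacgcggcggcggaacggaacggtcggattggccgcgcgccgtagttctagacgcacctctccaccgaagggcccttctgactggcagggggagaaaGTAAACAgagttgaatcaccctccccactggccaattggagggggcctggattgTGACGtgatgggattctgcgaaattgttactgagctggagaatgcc
Sgk1: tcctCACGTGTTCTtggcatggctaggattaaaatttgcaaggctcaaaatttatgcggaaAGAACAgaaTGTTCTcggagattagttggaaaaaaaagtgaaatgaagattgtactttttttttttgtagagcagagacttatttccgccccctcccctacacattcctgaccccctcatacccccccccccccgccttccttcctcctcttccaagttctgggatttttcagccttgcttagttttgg

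The windows of Dusp6, Hnrnpa1 and Ddit4, which led their sides or lists by p, held none of the 4 motifs. Those of Dusp6 and Hnrnpa1 are shown as examples from the higher and the lower side, at chr10:99262981-99263230 and chr15:103240147-103240396 on the plus strand, with no capitals.
Dusp6: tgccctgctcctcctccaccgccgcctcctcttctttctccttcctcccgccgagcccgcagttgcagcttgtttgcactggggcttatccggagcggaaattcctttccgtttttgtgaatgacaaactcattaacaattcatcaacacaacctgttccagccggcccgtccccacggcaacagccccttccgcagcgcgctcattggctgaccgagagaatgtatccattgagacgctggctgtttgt
Hnrnpa1: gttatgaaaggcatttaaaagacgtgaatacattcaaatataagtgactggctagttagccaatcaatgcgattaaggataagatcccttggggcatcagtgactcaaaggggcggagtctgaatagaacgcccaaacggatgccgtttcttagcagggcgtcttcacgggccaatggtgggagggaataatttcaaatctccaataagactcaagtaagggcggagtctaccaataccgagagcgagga

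FOXO targets and atrophy genes, which share Foxo1, Foxo3, Trim63 and Fbxo32 with the glucocorticoid list, had 13 of 19 members below 0 and a median of -0.12. Map1lc3b, the LC3B protein of autophagosome membranes, stood at -0.22 ± 0.10 (p = 0.0301 in the authors' deposited table) and Gadd45a, a gene of muscle wasting, at -0.24. Fbxo21, another ubiquitin ligase subunit, went the other way at 0.29 ± 0.12 (p = 0.0188 in the authors' deposited table). Of 32 autophagy genes 20 stood below 0 and 12 above. Over all tested genes 1.06% were lower and 0.942% higher at an unadjusted p under 0.05, and here 2 on either side. Those lower were Map1lc3b and Atg13 (-0.21), and those higher were Atg4c (0.29) and Atg101 (0.26). Of 39 proteasome genes 31 stood below 0 and 8 above, with a median of -0.05, none had an unadjusted p under 0.05, and all 34 with a mean of at least 50 lay within 1.5-fold. Cytosolic ribosomal proteins divided into 35 above and 44 below, with a median of -0.0095.

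Contractile genes, among the most abundant RNAs of the tissue, had no member with an unadjusted p under 0.05 in the lists of myosin heavy chains, fast and slow fibre proteins and sarcomere. Corrected for transcript length, Myh4 made up 94.7% of the myosin heavy chain level, Myh1 4.54%, Myh2 0.685% and Myh7 0.0528%. Myh4 encodes the myosin of the fastest fibres. Myh4 stood at -0.12 ± 0.08, Myh1 at -0.02 ± 0.11, Myh2 at 0.07 ± 0.13 and Myh7 at 0.02 ± 0.06 in the authors' deposited table. The intervals of all 4 contained 0. Fast fibre proteins had 5 genes above 0 and 11 below, with a median of -0.02, and with the prior undone all 16 lay within 1.5-fold. Slow fibre proteins had 12 above and 2 below, with a median of 0.04, but here 4 of the 14 lay within 1.5-fold, and 6 of them are those read as the larger error. Of 31 sarcomere and Z disc genes 20 stood above 0 and 11 below, with a median of 0.03, and 24 lay within 1.5-fold. They ran from -0.18 for the thin filament protein gene Lmod2 to 0.25 for Synpo2l and 0.24 for the small heat shock protein gene Cryab, by the authors' deposited table. Of the embryonic and neonatal myosins, Myh3 stood at -0.05 and Myh8 at -0.12, and Ankrd1, a stress gene of the Z disc, at 0.27 ± 0.13 (p = 0.0392 in the authors' deposited table).

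**Figure D5:**
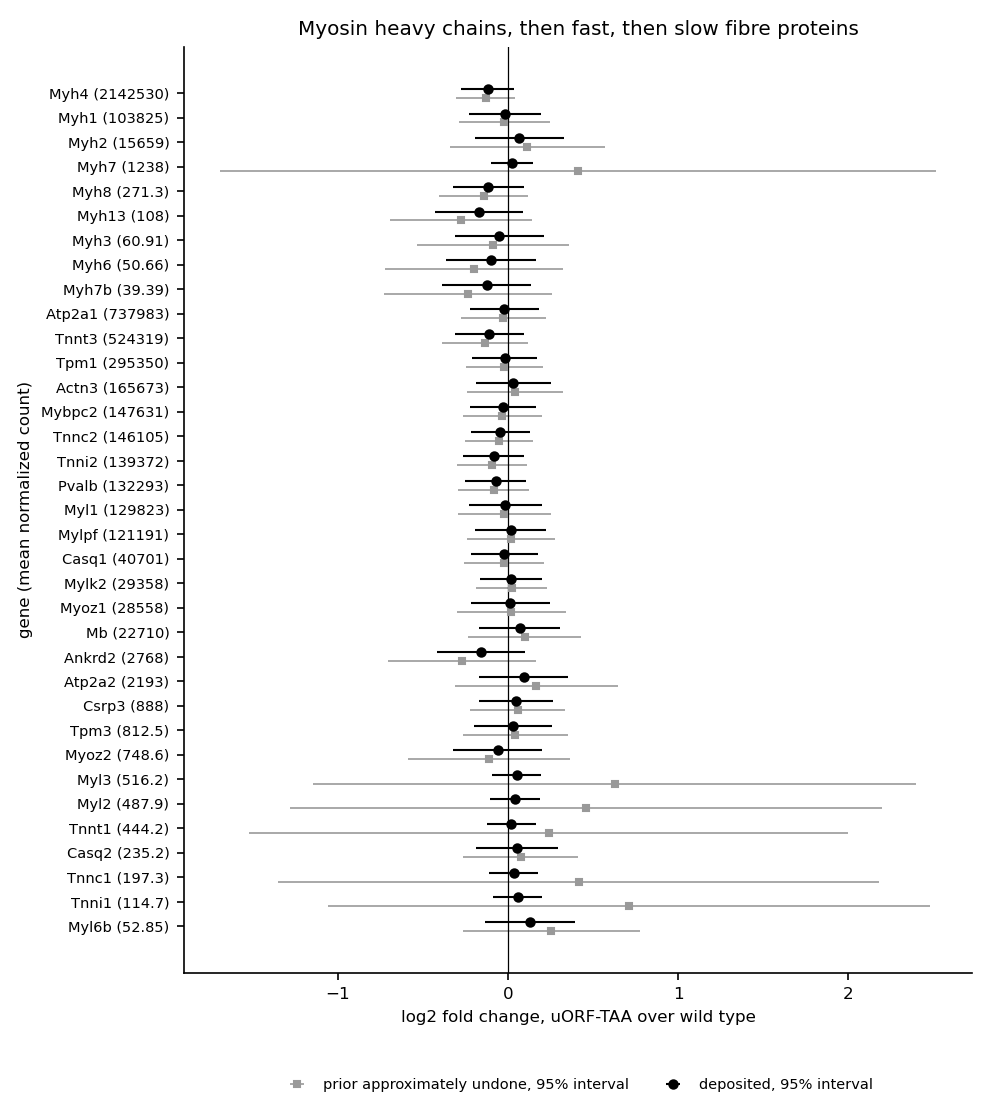
Log2 fold change of uORF-TAA over wild type (horizontal axis) for the 9 myosin heavy chains, the other fast fibre proteins and the other slow fibre proteins, each block ordered by the mean normalized count in brackets. Black points are deposited values and grey squares those with the prior approximately undone, with 95% intervals, and the long grey bars belong to the 6 slow fibre genes read as the larger error.

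Around the contractile core, the dystrophin complex and membrane repair list had 15 of 20 genes above 0 and a median of 0.05. Over all tested genes 0.942% were higher at an unadjusted p under 0.05. This list held 3 genes under that threshold, all higher. They were Sgcd, delta-sarcoglycan, at 0.30 ± 0.11 (p = 0.00571), Sntb1, a syntrophin, at 0.31 ± 0.13 (p = 0.0168) and Dmd, dystrophin itself, at 0.27 ± 0.13 (p = 0.0421), by the authors' deposited table. Sntb1 is a gene of low count, with a mean of 21.4. Of 24 genes of excitation-contraction coupling 14 stood above 0, and the release channel gene Ryr1 stood at 0.03. Of 17 genes of the neuromuscular junction 10 stood above 0, with Dok7, which activates the receptor kinase MuSK, at 0.26 ± 0.13 (p = 0.0424 in the authors' deposited table) and Musk at -0.06.

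Clock and immediate early genes, which are known to follow the hour and handling of an animal, stood on both sides of 0. Of 19 clock genes 9 stood above 0 and 10 below. Over all tested genes 2% had an unadjusted p under 0.05, and of the clock genes 4 did. Besides Bhlhe40 these were the repressors Bhlhe41 (0.27) and Nr1d1 (0.26), both higher, and Nfil3 (-0.27), lower, in the authors' deposited table. Of 18 immediate early genes 8 stood above 0 and 10 below. Btg2, an antiproliferative gene, stood at -0.40 ± 0.13 (p = 0.00311) and Maff at -0.32, while the nuclear receptor gene Nr4a1 stood at 0.32 and Fosb, with a mean of 3.12, at 0.15, all under an unadjusted p of 0.05 in the authors' deposited table. The hour of dissection is not in the labels, and its part in these values was not tested. The oxygen-responsive factor Hif3a stood at -0.34 ± 0.13 (p = 0.0119 in the authors' deposited table), and Hif1a and Epas1 at 0.07 and 0.10. Nfatc2, a factor that calcineurin activates, stood at 0.30 ± 0.13, and 1 of 15 genes of that pathway had an unadjusted p under 0.05.

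Markers of other cell types were present at levels that differed widely, from means of at most 7.59 for T and B cells to 9724 for the fibroblast marker Gsn. In bulk muscle fewer cells of a type and less RNA per cell cannot be told apart. Mural markers leaned lower, with 10 of 14 below 0 and 4 lower at an unadjusted p under 0.05, beside 1.06% of all tested genes. The list is not of mural cells alone, since muscle fibres also express its members Des (-0.08, mean 50955) and Synpo2 (0.14). These 4 were contractile genes of smooth muscle, Myh11 at -0.35 ± 0.10, Tagln at -0.32 ± 0.13, Acta2 at -0.29 ± 0.13 and Mylk at -0.20 ± 0.10, with means between 207 and 729 in the authors' deposited table. The pericyte markers Rgs5, Pdgfrb and Cspg4, named after their values were seen, stood at 0.01, -0.08 and 0.20. Schwann cell markers had 11 of 12 below 0, with a median of -0.13 and a lowest value of -0.30. Of these 12, 1 was lower at an unadjusted p under 0.05, and 6 had a mean of at least 50. Mbp, which encodes myelin basic protein, stood at -0.20 in the authors' deposited table. Adipocyte markers had 11 of 12 above 0, with a median of 0.07, none with an unadjusted p under 0.05, and Adipoq stood at 0.08. Ucp1, which marks brown adipocytes, had a mean of 6.70. Endothelial markers stood 6 above and 9 below, macrophage markers 7 and 7, and fibroblast markers 7 and 7 among the 14 with a p-value. The part that differences in these cells have in the values of other genes was not tested.

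Of the genes whose mean was 1000 or more, those whose deposited intervals reached least far from 0 were Anapc5, Cux1, Fto, Gfm2, Ndufb9, Pmpca, Prkar2a, Sdha, Vapb and Myh7. They serve unrelated functions, among them protein breakdown in the cell cycle (Anapc5), the respiratory chain (Ndufb9 and Sdha), import of mitochondrial proteins (Pmpca) and anchoring of protein kinase A (Prkar2a). Anapc5 stood at -0.0036 ± 0.07 in the authors' deposited table, with a mean of 10410, and with the prior undone its interval still ran only from -0.15 to 0.14. Sdha stood at 0.0037 ± 0.08, with an interval from -0.16 to 0.17 on that scale. Myh7 entered by the same rule but is among the genes read as the larger error, so its place here cannot be taken as flatness. Over all 76 lists, 1279 distinct members were tested and 0 were called at an adjusted p of 0.05.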

How the data were processed

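RNA of quadriceps from 4 uORF-TAA and 4 wild-type mice was sequenced. Tools and build named by the submitters' processing notes are DESeq2 1.10.1, STAR 2.5.1b and mm9, with no roles. Which annotation and read counter served is not given in the sources used here. Per the file headers, the authors' deposited comparison table holds for each gene a mean normalized count, a signal over all 8 libraries. It also holds a deposited log2 fold change with its standard error in log2 units, a deposited Wald statistic (a score equal to their ratio) and a deposited p-value and adjusted p-value. The test used is the deposited one, and nothing was refitted, since the table has no values per library. That the name of the table puts the numerator first is an assumption.

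Intervals are estimates ± 1.96 SE. The prior was undone from the ceiling of the deposited standard error. The larger of 2 possible errors was taken under counting noise, or where the smaller implied a dispersion under 0.5 of the 5th percentile among genes of like mean, a rule set after seeing the data. Computation used Python 3.11.15, pandas 2.3.3, numpy 2.4.6 and scipy 1.17.1, and the procedures were tested on simulated statistics. The simulation used the same prior and the same errors, so it could not test the prior or the choice of error. The genes and the 76 lists were chosen with earlier results of these data known. Named genes are Ppargc1a, the 12 of smallest p per direction with a mean of at least 50, the 10 flattest with a mean of at least 1000, and per list up to 4 of smallest p and 3 of highest mean. Lists of up to 12 members may be given in full, and exceptions are stated. Promoters are from RefSeq, and Myod1 has none in the table used. Alternatives tried were other thresholds, filters on low counts, centring, an empirical null and the undone prior. Some items are not reported here.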

Additional observations from a re-analysis of the deposited data

How the results depend on the processing

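The count of 0 genes called by the authors' deposited DESeq2 p-values stayed at 0 at a threshold of 0.01 and when adjusted over genes whose mean was 10 or more, or 50 or more. It became 2 at a threshold of 0.1 and 13 (5 higher, 8 lower) with an empirical null, in which Wald statistics were centred and divided by their central spread of 0.839. The empirical null also raised the genes at an unadjusted p under 0.05 from 165 to 372 higher and from 185 to 391 lower. The 6270 genes with deposited intervals within 0.32 log2 units of 0 became 9781 within 1.5-fold, 3185 among genes whose mean was 500 or more, and 1927 after undoing the prior. This was 1938 where the smaller error was kept unless under counting noise, a setting added after seeing the data. Of 295 list medians recomputed, 9 had another sign, all from medians no larger than 0.03, and 125 named genes moved by over 1 deposited SE once the prior was undone. Leaving out single mice was not possible without values per library. No paired analysis was possible because the table combines the 8 libraries and carries no replicate numbers. With 4 mice per genotype and estimated depths of 11.4 M to 31.8 M counts, differences under 0.32 log2 units stayed unresolved for most genes. The median error with the prior undone was 0.15 at means of 500 to 1000 and 0.14 at means of 10000 or more. What part depth has in this was not tested.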

Other observations

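The authors' deposited table leaves the p-value blank for 18 genes while giving their fold changes. The table does not say why. Among them are the neutrophil granule genes Mpo, Elane, Camp and Retnlg and the liver genes Cps1, Ahsg and Mug1, with means between 1.33 and 8.42. Also blank are the collagen-binding proteoglycan gene Lum, at a mean of 186 with a log2 difference of 0.27, Trp53inp1, at a mean of 2646 with -0.12, and Tiparp, at a mean of 1966 with -0.12. None of these 18 entered a count of genes tested.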
